A study of Homo sapiens with 8 samples.

Results

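The 10 genes described here encode proteins that build melanosomes or carry them through the cell: RAB27A, MLPH, MYO5A, RAB38, RAB32, GPNMB, HPS1, HPS4, LYST and AP3B1. They were taken by symbol from a table of 18406 genes, and all 10 were found. RNA was sequenced from 92.1 cells, an established uveal melanoma line, 24 h after 1 of 4 treatments: DMSO as vehicle, trametinib at 10 nM, panobinostat at 10 nM, or the 2 drugs in combination, with 2 libraries for each. Trametinib blocks the kinases MEK1 and MEK2, and panobinostat blocks histone deacetylases. All groups are 1 cell line grown in the same serum-containing medium, and no source says whether the 2 libraries of a group came from separate cultures, so the spread between them may be technical. The labels of the panobinostat and combination libraries also carry the words for a MEK inhibitor, and the combination label gives 10 nM once. The drug names were followed, and 10 nM of each drug is an assumption. The deposited table is named for 4 additional samples without saying which. The treatment text and the build listed by the submitters differ between the 4 vehicle and trametinib libraries and the 4 panobinostat and combination libraries. Trametinib against vehicle and the combination against panobinostat each lie within 1 of these sets. In the other pairwise comparisons the presence of panobinostat and the set of libraries cannot be told apart, and in the interaction a constant log2 shift of a gene between the sets cancels. The question that the series poses is what histone deacetylase inhibition adds to MEK inhibition in this tumour.

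Melanosomes are lysosome-related organelles in which pigment cells make and store melanin. Sorting complexes and small GTPases of the RAB family deliver enzymes and membrane proteins from endosomes to the maturing organelle, and mutations in several of these genes cause Hermansky-Pudlak syndrome with albinism. Mature melanosomes are then handed to actin filaments by a chain in which RAB27A on the organelle binds melanophilin (MLPH), which binds the motor myosin Va (MYO5A). Loss of any of these 3 proteins causes a form of Griscelli syndrome, in which pigment stays in the centre of the cell. MITF, the lineage transcription factor of melanocytes, is known to act on several melanosome genes through E-box and M-box sequences.

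The DNA before the start sites is shown for 3 of the 10 genes, chosen after their levels were seen. Under both drugs GPNMB stood near its level with trametinib alone, whereas MLPH and MYO5A stood near their vehicle level. Whether the letters marked below bear on these levels was not tested. The 250 bases before the start come from RefSeq on GRCh38.p14, at chr7:23246525-23246774 on the plus strand for GPNMB, chr2:237487001-237487250 on the plus strand for MLPH and chr15:52529051-52529300 on the minus strand for MYO5A. Capitals mark E-box letters (CACGTG) or M-box letters (TCATGTG, which contain CATGTG), searched on both strands.
GPNMB: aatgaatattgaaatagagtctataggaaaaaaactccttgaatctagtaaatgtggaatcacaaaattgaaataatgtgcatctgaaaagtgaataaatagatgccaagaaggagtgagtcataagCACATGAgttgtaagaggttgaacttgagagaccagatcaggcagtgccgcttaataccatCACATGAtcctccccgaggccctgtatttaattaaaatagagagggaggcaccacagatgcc
MLPH: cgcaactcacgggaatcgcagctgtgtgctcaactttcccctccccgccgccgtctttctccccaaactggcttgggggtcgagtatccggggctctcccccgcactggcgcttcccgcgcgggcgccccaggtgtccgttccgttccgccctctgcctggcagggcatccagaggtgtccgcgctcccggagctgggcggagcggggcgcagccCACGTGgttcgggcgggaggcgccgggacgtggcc
MYO5A: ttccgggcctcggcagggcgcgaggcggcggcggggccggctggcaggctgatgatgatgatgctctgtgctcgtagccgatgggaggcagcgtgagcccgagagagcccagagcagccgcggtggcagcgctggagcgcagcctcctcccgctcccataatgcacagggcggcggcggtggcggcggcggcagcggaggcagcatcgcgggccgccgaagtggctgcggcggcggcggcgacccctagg

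GPNMB carried the M-box letters 2 times, beginning 123 and 62 bases before the start and both on the reverse strand, where they read CACATGA. MLPH carried 1 E-box beginning 35 bases before this start, and none of the 3 motifs was in the MYO5A window. The window of another MLPH start, at chr2:237486160-237486409 and not shown, carried none of the 3 motifs either. Windows of 300 bases (250 before and 50 after a start) were on file for 7 of the 10 genes, 17 windows in all. Among these 7 genes, 1 had CACGTG, 3 had CATGTG (GPNMB, LYST and HPS4) and 1 had TCATGTG. Of the 3 with CATGTG, GPNMB (3.29-fold) and LYST (1.27-fold) were above vehicle in the combination, and HPS4 was at 0.551 of vehicle. Over all 27305 genes with windows of this length, 8.78% had CACGTG, 13.4% had CATGTG and 3.59% had TCATGTG. By window the counts were 1, 5 and 1 of 17, beside 7.26%, 11.1% and 2.92% of all 35116 windows. The 5 windows with CATGTG hold fewer sites, since 2 overlapping LYST windows share 1 site and 2 overlapping HPS4 windows share 1. The bases after the start of these 2 LYST windows were not found in a LYST transcript of GENCODE 29. The LYST window whose bases were found there carried none of the 3 motifs. A match of letters is a description and does not show that a factor binds there.

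The deposited values are gene counts divided by 1 size factor per library, called normalised read counts below. Within each library they were whole multiples of a single step. Taking 1 step as 1 read, which is an assumption, gave between 6897784 and 16861001 reads per library. The smallest number of reads behind any value of the 10 genes was 153, for RAB27A in panobinostat replicate 1. Trametinib replicate 2 stood apart at low values, with 5362 genes at 0 against 3743 in trametinib replicate 1 and 2222 to 2890 in the other 6 libraries. The counts of the 10 genes that rest on it, and their changes singly or as a range, are therefore also given without it. So are the counts of all lists of other pathway genes together, of melanosome cargo and of BLOC-1. Counts of the other lists are given with all 8 libraries only, and several of them changed without it. All 8 melanocyte lineage markers were measured. The most abundant were PMEL, between 28666 and 53493 in the 8 libraries, and TYRP1, between 43182 and 80168. MLANA, MITF, SOX10 and TYR lay between 1413 and 20061. S100B did not exceed 12.2. DCT was at 14.4 and 4.75 in vehicle and at 5.10 and 10.1 with panobinostat. It was at 1984 and 1912 with trametinib and at 258 and 236 in the combination. RAB27A, LYST and GPNMB are also used by immune cells. Of 7 immune markers 5 were measured. They summed to 673 to 700 in vehicle libraries, to 763 to 920 under trametinib, to 1506 to 1571 under panobinostat and to 946 to 1048 in the combination. Most of this was CD68, a lysosomal gene, and LYZ reached 101, PTPRC 11.7, CD14 3.61 and ITGAM 0. Summed over all their measured markers, 5 of 5 fibroblast genes lay between 402 and 416 in vehicle and between 806 and 1307 in the drug-treated libraries. The 5 of 6 epithelial markers summed to 180 to 184 in vehicle libraries, to 803 to 814 in trametinib libraries, to 243 to 244 in panobinostat libraries and to 710 to 726 in combination libraries, most of it BEST1. The 3 endothelial markers summed to at most 4.08. The part of these shifts in the results below was not tested.

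As in any bulk sample, fewer cells of a type and less RNA per cell cannot be told apart. Exons of RAB27A overlap those of PIGB over 154 bases, and exons of HPS4 those of ASPHD2 over 468 bases, each on the opposite strand in GENCODE 29. No source used here states whether counting used strand. The mean levels were 103 for PIGB and 55.9 for ASPHD2. MYO5A and RAB27A both lie on chromosome 15, and the other 8 genes are each on a chromosome of their own.

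Trametinib alone raised most of the 10 genes. By limma on log2(value + 1), 8 of 10 were higher than in vehicle and 0 were lower at an adjusted p under 0.05, while 23.7% of all 13320 tested genes were called higher and 27.4% lower. The median log2 change of the 10 genes was 0.79, beside -0.073 over all tested genes. Without trametinib replicate 2, 9 of 10 were called higher. The changes were then 1.80 for MLPH, 1.63 for MYO5A, 1.61 for GPNMB, 0.71 for RAB38, 0.77 for RAB32, 0.85 for LYST and 0.13 for AP3B1, which was the gene that did not pass. Those of RAB27A, HPS1 and HPS4 stand with their levels below.

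The 3 genes of the transport chain rose the furthest together with GPNMB. RAB27A, the GTPase that marks the melanosome for transport, was at 237 and 260 in vehicle and at 1113 and 875 with trametinib. The groups did not overlap, although the 2 trametinib libraries differed more than any other pair for this gene. The change was 4.00-fold, or 1.99 ± 0.17 (log2 change ± SE, limma adjusted p = 9.84e-06), and 2.16 without trametinib replicate 2. MLPH, the adaptor, was at 657 and 690 in vehicle and at 2352 and 2188 with trametinib, 3.37-fold higher (1.75 ± 0.088, adjusted p = 3.99e-07). MYO5A, the motor, was at 2850 and 2906 in vehicle and at 8914 and 9101 with trametinib, 3.13-fold higher (1.65 ± 0.058, adjusted p = 5.09e-08). For both genes each trametinib library was more than 3-fold above each vehicle library.

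GPNMB is a glycoprotein of melanosomes and lysosomes. It was at 14109 and 14440 in vehicle and at 43702 and 47762 with trametinib, a 3.20-fold rise (1.68 ± 0.056, adjusted p = 4.22e-08).

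RAB38 and RAB32 are related GTPases that route pigment enzymes to the immature organelle. Both rose, but by less than the transport chain. RAB38 went from 3229 and 3114 to 5172 and 5628, 1.70-fold (0.77 ± 0.065, adjusted p = 1.03e-05). RAB32 went from 1379 and 1249 to 2234 and 1849, 1.55-fold (0.63 ± 0.11, adjusted p = 0.000928).

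HPS1 and HPS4 form BLOC-3, the complex that activates RAB32 and RAB38, and the 2 subunits did not pass alike. HPS1 went from 1001 and 967 to 1491 and 1896, 1.72-fold (0.77 ± 0.11, adjusted p = 0.000344), and its change was 0.60 without trametinib replicate 2. HPS4 went from 1494 and 1534 to 1838 and 1732. These groups did not overlap, yet the change of 0.24 ± 0.10 did not pass (adjusted p = 0.0799). It passed without trametinib replicate 2 (0.28, adjusted p = 0.0314), panobinostat replicate 1 (0.24, adjusted p = 0.0441) or panobinostat replicate 2 (0.24, adjusted p = 0.0455). Whether HPS1 and HPS4 differ in their response was not tested.

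LYST, a large regulator of the size of lysosome-related organelles that is mutated in Chediak-Higashi syndrome, rose from 6044 and 6149 to 10985 and 10464, 1.76-fold (0.81 ± 0.052, adjusted p = 1.80e-06). AP3B1 encodes a large subunit of AP-3, an adaptor that sorts tyrosinase into melanosomes. It was at 922 and 783 in vehicle and at 927 and 917 with trametinib, and the 2 groups overlapped. Its change of 0.12 did not pass (adjusted p = 0.364), and the 95% interval ran from -0.11 to 0.35.

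**Figure D1:**
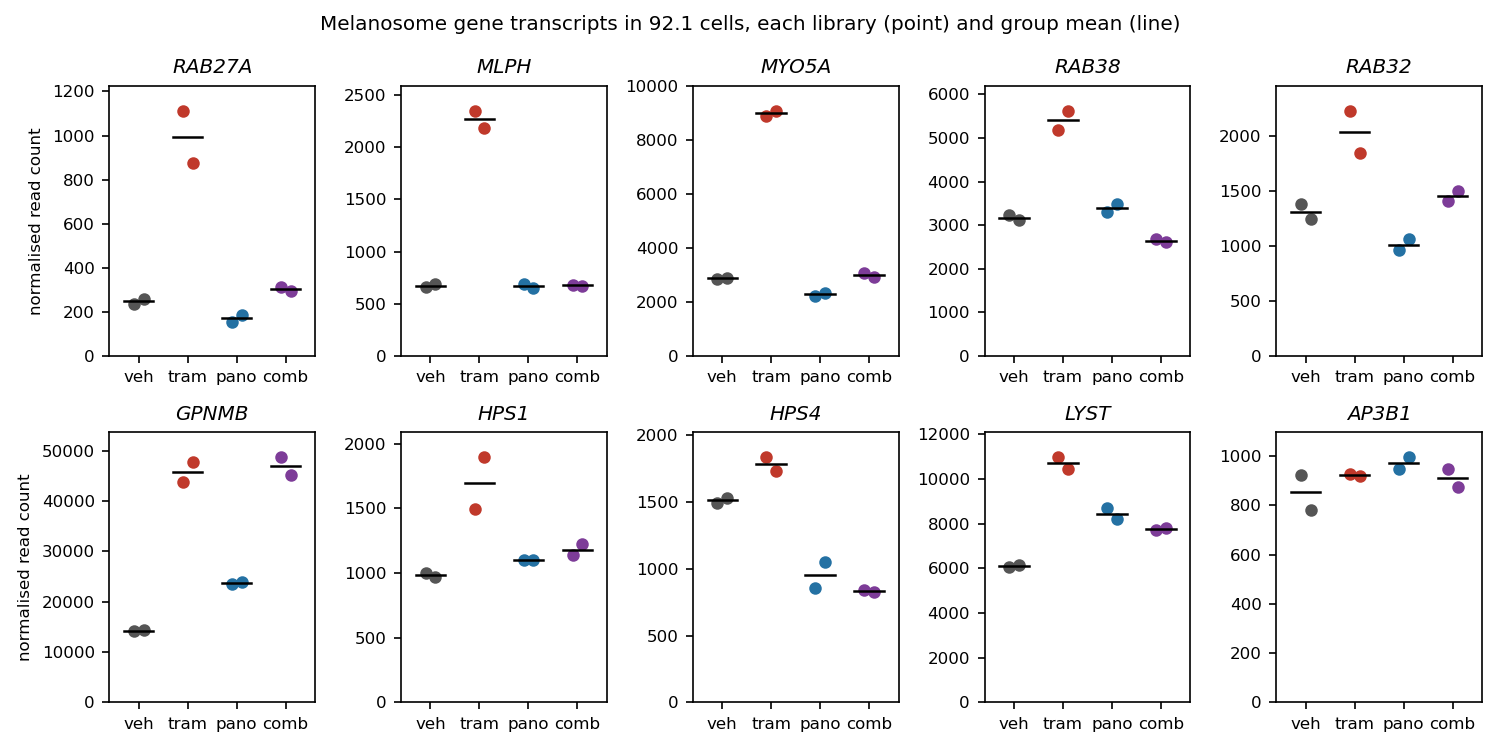
Normalised read count (vertical axes, each starting at 0) of each of the 10 genes in vehicle (veh), trametinib (tram), panobinostat (pano) and the combination (comb); points are the 2 libraries of a group and lines their mean. For every gene but GPNMB and AP3B1 the trametinib libraries stand above all others. For GPNMB the combination libraries (48749 and 45273) stand with them, and AP3B1 shows little spread between groups.

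Panobinostat alone split the genes. By limma 2 of 10 were higher than in vehicle and 4 were lower, beside 15.0% and 15.6% of all tested genes, and the median change was 0.045 against 0.0021 over all tested genes. GPNMB and LYST rose, while RAB27A, MYO5A, RAB32 and HPS4 fell.

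GPNMB was at 23587 and 23839 with panobinostat, 1.66-fold above vehicle (0.73 ± 0.056, adjusted p = 2.90e-05). LYST was at 8696 and 8210, 1.39-fold above vehicle (0.47 ± 0.052, adjusted p = 0.000215). For both genes the panobinostat libraries lay above both vehicle libraries and below both trametinib libraries. CD68 also rose with panobinostat (1.21 ± 0.097, adjusted p = 3.64e-05). LYZ was at 45.7 and 57.8 in vehicle and at 84.6 and 72.6 with panobinostat. Its change of 0.60 did not pass (adjusted p = 0.771). PTPRC, CD14 and ITGAM were at most 3.06 in the panobinostat libraries.

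HPS4 fell the furthest, to 858 and 1053, which is 0.631 of the vehicle level (-0.67 ± 0.10, adjusted p = 0.00127). Its partner HPS1 was at 1099 and 1103, above both vehicle libraries, but its change of 0.16 ± 0.11 did not pass (adjusted p = 0.318). MYO5A fell to 2239 and 2347, 0.797 of vehicle (-0.33 ± 0.058, adjusted p = 0.00278).

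The falls of RAB27A and RAB32 were less secure. RAB27A was at 156 and 185 (-0.55 ± 0.17, adjusted p = 0.0339) and RAB32 at 961 and 1063 (-0.38 ± 0.11, adjusted p = 0.0254). Neither group overlapped vehicle. Leaving out replicate 1 or 2 ended the RAB27A call in vehicle (-0.61, -0.48), in panobinostat (-0.43, -0.67) and in the combination (-0.55 both times). The same 6 omissions ended the RAB32 call (-0.30 and -0.45 for vehicle, -0.30 and -0.45 for panobinostat, -0.38 both times for the combination). These 2 genes are the reason that the count of 4 lower genes went to 2 in each of those 6 fits.

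MLPH, RAB38 and AP3B1 did not pass. MLPH was at 685 and 655 and overlapped vehicle (95% interval of the log2 change from -0.20 to 0.19). RAB38 was at 3302 and 3481, above both vehicle libraries (0.096, 95% interval from -0.049 to 0.24). AP3B1 was at 949 and 996, also above both (0.19, 95% interval from -0.038 to 0.43).

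With both drugs, most of the rise seen with trametinib was absent. Against vehicle, 2 of 10 genes were higher and 2 were lower, beside 24.5% and 25.5% of all tested genes, and the median change of the 10 genes was 0.13 against 0.031 over all tested genes. GPNMB and LYST were the higher ones, RAB38 and HPS4 the lower ones, and 6 did not pass.

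The transport chain stood near its vehicle level. MLPH was at 683 and 672 in the combination, inside the vehicle range (0.0089, 95% interval from -0.19 to 0.21). MYO5A was at 3060 and 2916, slightly above both vehicle libraries (0.054, 95% interval from -0.077 to 0.18). RAB27A was at 314 and 295, above both vehicle libraries, but its change of 0.29 did not pass (adjusted p = 0.174, 95% interval from -0.081 to 0.67). The signs of the MLPH and MYO5A changes flip under another scaling, trimmed mean of M values (-0.097 and -0.052), and neither passes there.

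GPNMB stayed high, at 48749 and 45273, 3.29-fold above vehicle (1.72 ± 0.056, adjusted p = 7.11e-08). LYST was at 7728 and 7794, 1.27-fold above vehicle (0.35 ± 0.052, adjusted p = 0.000437). HPS4 was at 841 and 828, 0.551 of vehicle (-0.86 ± 0.10, adjusted p = 0.000103). RAB38, which rose with trametinib, was at 2683 and 2609 and so below both vehicle libraries (-0.26 ± 0.065, adjusted p = 0.00784). That call ended without vehicle replicate 1 (-0.23) or combination replicate 2 (-0.24).

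HPS1 was at 1139 and 1222, above both vehicle libraries, and did not pass (0.26 ± 0.11, adjusted p = 0.0791). It passed when only vehicle and combination libraries were fitted (adjusted p = 0.00927) and without trametinib replicate 1 (adjusted p = 0.0051) or 2 (adjusted p = 0.00533), with the same change. RAB32 was at 1412 and 1502 (0.15, 95% interval from -0.091 to 0.39) and AP3B1 at 949 and 875 (0.10, 95% interval from -0.13 to 0.33), and neither passed.

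**Figure D2:**
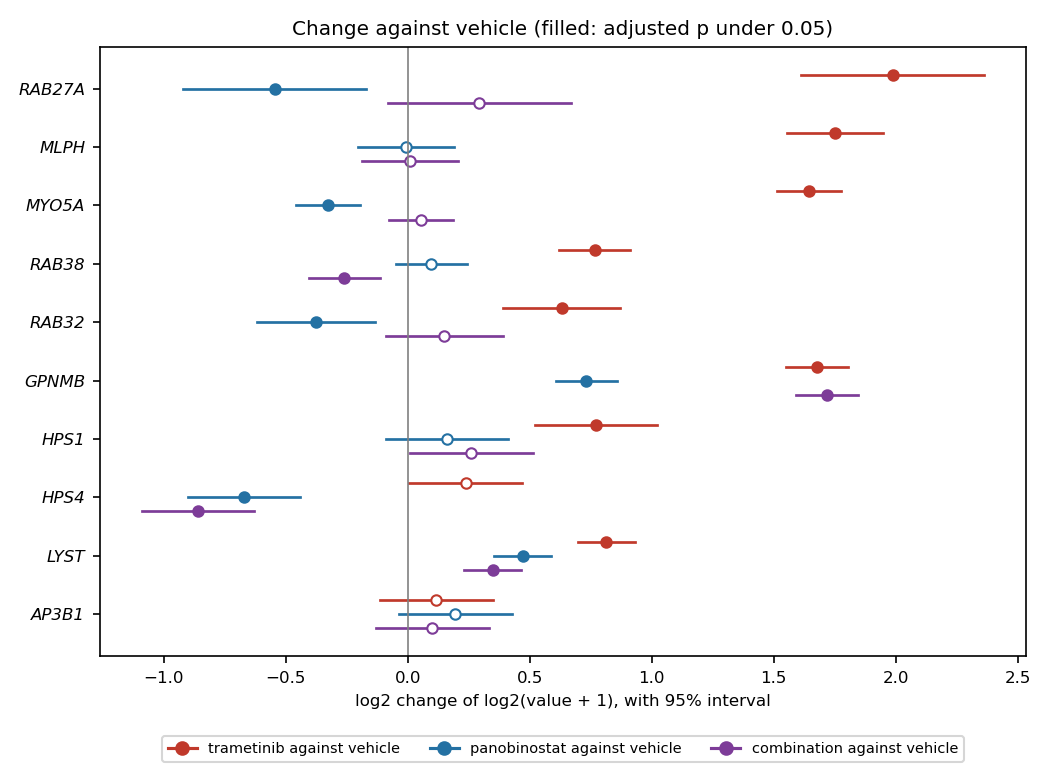
Log2 change of each gene against vehicle (horizontal axis) for trametinib, panobinostat and the combination; points are limma estimates, bars 95% intervals, and filled points passed at an adjusted p under 0.05. Trametinib points lie to the right of 0 for all 10 genes and passed for 8, whereas in the combination GPNMB (1.72) and LYST (0.35) passed to the right and RAB38 (-0.26) and HPS4 (-0.86) to the left.

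Adding panobinostat to trametinib lowered 8 of the 10 genes and raised 0 by limma, beside 15.2% of all tested genes called lower and 17.6% called higher. The median change was -0.77, against 0.064 over all tested genes. Without trametinib replicate 2 the count of lower genes was also 8, with -1.87 for RAB27A, -1.79 for MLPH, -1.58 for MYO5A, -1.14 for HPS4, -0.97 for RAB38, -0.62 for RAB32, -0.50 for LYST and -0.34 for HPS1. The HPS1 value is thus the one that moved by more than 1.5 times.

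MLPH, the largest fall, was at 0.298 of its trametinib level (-1.74 ± 0.088, adjusted p = 1.67e-06). RAB27A was at 0.306 (-1.69 ± 0.17, adjusted p = 8.38e-05) and MYO5A at 0.332 (-1.59 ± 0.058, adjusted p = 3.30e-07). All combination libraries of these 3 genes lay below all trametinib libraries.

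HPS4 was at 0.467 of its trametinib level (-1.10 ± 0.10, adjusted p = 6.37e-05) and RAB38 at 0.490 (-1.03 ± 0.065, adjusted p = 6.75e-06). HPS1 (-0.51 ± 0.11, adjusted p = 0.00726), RAB32 (-0.48 ± 0.11, adjusted p = 0.00798) and LYST (-0.47 ± 0.052, adjusted p = 0.000186) fell by less. Without combination replicate 1 the RAB32 (-0.44) and HPS1 (-0.46) calls ended. GPNMB and AP3B1 did not pass, and for both the groups overlapped: the 95% interval of the change was -0.086 to 0.17 for GPNMB and -0.25 to 0.22 for AP3B1. The interval for GPNMB lies above the estimate of each of the 8 genes that fell.

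Read from the other side, adding trametinib to panobinostat raised 4 of the 10 genes and lowered 1, beside 10.9% and 13.1% of all tested genes, with a median of 0.058 against 0.012. GPNMB was 1.98-fold higher (0.99 ± 0.056, adjusted p = 3.58e-06), RAB27A 1.79-fold (0.84 ± 0.17, adjusted p = 0.00568), RAB32 1.44-fold (0.53 ± 0.11, adjusted p = 0.00651) and MYO5A by a smaller step (0.38 ± 0.058, adjusted p = 0.00133). RAB38 was at 0.780 of its panobinostat level (-0.36 ± 0.065, adjusted p = 0.00348). The RAB27A call ended without panobinostat replicate 1 (0.72) or combination replicate 1 (0.80), and the RAB32 call without panobinostat replicate 1 (0.45) or combination replicate 2 (0.48). MLPH, which trametinib raised in the absence of panobinostat, did not pass here (0.016, 95% interval from -0.18 to 0.21).

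Set directly against panobinostat, trametinib gave higher levels for 9 of the 10 genes and lower levels for 0, beside 18.7% and 23.4% of all tested genes, with a median of 0.93 against -0.075. The differences ran from 5.84-fold for RAB27A (2.53 ± 0.17, adjusted p = 3.34e-06) to 1.27-fold for LYST (0.34 ± 0.052, adjusted p = 0.00068). AP3B1 was the gene that did not pass (-0.077, 95% interval from -0.31 to 0.16). Without trametinib replicate 2 the count of higher genes was also 9, and the changes ran from 2.71 for RAB27A to 0.38 for LYST.

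The interaction asks whether panobinostat acts differently once trametinib is present: its change on top of trametinib minus its change on top of vehicle. By limma 7 of the 10 genes were lower and 0 higher, beside 9.04% and 10.2% of all tested genes, and the median was -0.81 against 0.076. Without trametinib replicate 2 it was 8 lower genes, from -1.79 for MLPH to -0.47 for HPS4. MLPH had the largest value (-1.74 ± 0.12, adjusted p = 3.36e-05): panobinostat moved it by -0.0069 without trametinib and by -1.74 with it. MYO5A was at -1.26 ± 0.082 (adjusted p = 2.04e-05), RAB27A at -1.15 ± 0.24 (adjusted p = 0.0087) and RAB38 at -1.12 ± 0.091 (adjusted p = 6.86e-05). LYST (-0.94 ± 0.074, adjusted p = 6.10e-05) changed sign, from 0.47 with panobinostat alone to -0.47 on top of trametinib.

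GPNMB also passed (-0.69 ± 0.079, adjusted p = 0.000401): panobinostat raised it by 0.73 without trametinib, and on top of trametinib its change was 0.040. HPS1 was at -0.67 ± 0.16 (adjusted p = 0.0164). RAB32 (-0.10, 95% interval from -0.44 to 0.24), HPS4 (-0.43, from -0.75 to -0.100, adjusted p = 0.0698) and AP3B1 (-0.21, from -0.54 to 0.12) did not pass. The HPS4 interaction passed without trametinib replicate 1 (-0.38, adjusted p = 0.032) or 2 (-0.47, adjusted p = 0.0131) or panobinostat replicate 1 (-0.57, adjusted p = 0.0307). The RAB27A interaction no longer passed without vehicle replicate 1 (-1.08). The HPS1 interaction lost its call on leaving out either vehicle library (-0.70 without replicate 1, -0.65 without 2). The same held for either panobinostat library (-0.68 and -0.67) and either combination library (-0.62 and -0.72).

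**Figure D3:**
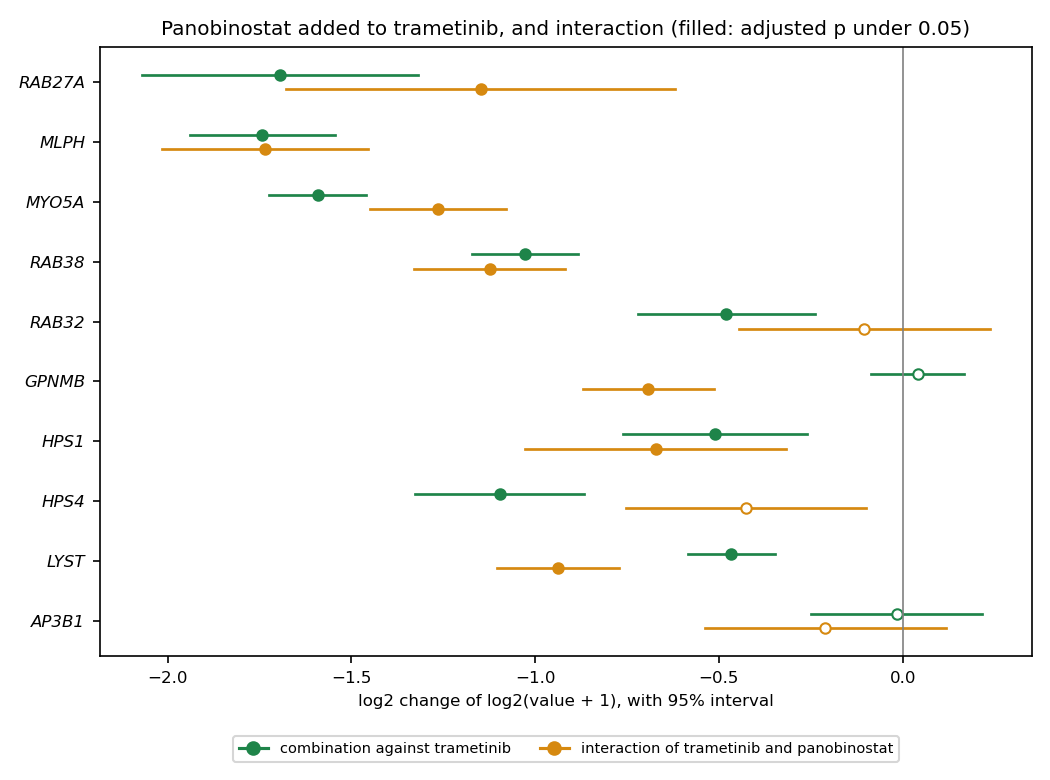
Log2 change on adding panobinostat to trametinib (green) and the interaction (orange), on the horizontal axis, for each gene; points are limma estimates, bars 95% intervals, and filled points passed at an adjusted p under 0.05. For MLPH the values nearly coincide (-1.74 each), while GPNMB has an interaction of -0.69 with a change of 0.040 on adding panobinostat.

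The order of the 4 groups differed between genes. For RAB27A, MYO5A and RAB32 it was trametinib, combination, vehicle and panobinostat from high to low, and combination and vehicle did not differ by the test. MLPH had the same order with the lower 3 groups not distinguished. RAB38 was highest with trametinib and lowest in the combination, with vehicle and panobinostat not distinguished. For LYST the order was trametinib, panobinostat, combination and vehicle, and panobinostat and the combination were not distinguished. HPS1 was highest with trametinib, and its other 3 groups were not distinguished between neighbours. HPS4 fell into a high pair (trametinib and vehicle) and a low pair (panobinostat and combination). GPNMB had vehicle lowest, panobinostat next, and trametinib with the combination at the top, not distinguished. No neighbouring groups differed for AP3B1.

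The largest range of group means among the 10 was that of RAB27A, 2.53 on the log2 scale, and the smallest that of AP3B1, 0.19. The 3 tested genes whose profile over the 8 libraries was nearest to that of RAB27A, by the root mean square difference of log2 values after each gene's own mean was removed, were PMP22 (0.175), BNC2 (0.190) and SLC7A5 (0.192). The vehicle levels of PMP22 were 1782 and 1786, the trametinib levels 6722 and 5684, the panobinostat levels 1472 and 1292 and the combination levels 2289 and 2140. Among the other 9 genes the nearest was MYO5A (0.242) and the next MLPH (0.342), its partners in the transport chain, and the farthest was AP3B1 (0.963).

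The other genes of the pathway were read from 10 lists of its complexes, effectors, motors and cargo with 89 entries (87 found in the table, 76 tested). With trametinib 33 of the 76 were higher and 6 lower, beside 23.7% and 27.4% of all tested genes. On adding panobinostat to trametinib 4 were higher and 27 lower, beside 17.6% and 15.2%. Without trametinib replicate 2 the counts were 33 higher and 14 lower, and then 9 higher and 33 lower. Melanosome cargo had 9 higher and 1 lower of 11 with trametinib and 0 higher and 10 lower when panobinostat was added. In BLOC-1, a sorting complex upstream of BLOC-2, 0 of 7 passed in either comparison. Some of its genes, such as SNAPIN (203 and 59.3) and CNO (21.1 and 0), lay far apart between the 2 trametinib libraries, and others lay close. Without trametinib replicate 2, cargo had 9 higher and 2 lower and then 0 higher and 10 lower, and BLOC-1 had 1 higher and then 1 lower. Whether these lists differ from each other was not tested.

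Among the cargo, DCT, which acts in melanin synthesis, had levels of 14.4 and 4.75 under vehicle that trametinib brought to 1984 and 1912. They were 5.10 and 10.1 under panobinostat, and 258 and 236 in the combination libraries. OCA2, an anion channel of the melanosome, was 1.79 ± 0.073 above vehicle with trametinib and 1.48 ± 0.073 above it in the combination. The ion exchanger SLC24A5 went the other way: it fell with trametinib (-0.997 ± 0.10) and with panobinostat (-0.51 ± 0.10), and further in the combination (-2.09 ± 0.10).

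RAB27A has other effectors than melanophilin, and regulators of its own. Of 13 listed genes 11 were found in the table, and 6 had levels high enough to test. Under trametinib 2 were higher and 0 lower, beside 23.7% and 27.4% of all tested genes. SYTL2, a tethering effector, went from 193 and 179 to 692 and 1230 (2.31 ± 0.23), and TBC1D10A, which switches RAB27A off, from 138 and 123 to 256 and 384 (1.26 ± 0.26). On adding panobinostat SYTL2 (-0.79 ± 0.23) and TBC1D10A (-0.80 ± 0.26) fell, and 1 gene rose, beside 15.2% and 17.6% of all tested genes. Both falls ended without trametinib replicate 2 (SYTL2 -0.37, adjusted p = 0.0514, and TBC1D10A -0.51, adjusted p = 0.0986). That gene, SYTL3, named here after its values were seen, was low throughout, at 6.02 and 0 with trametinib and 34.0 and 28.9 in the combination.

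The list for RAB32 and RAB38 also held other RAB GTPases, whose place on it does not show that they act on either protein. Of its 5 tested genes, 1 was higher with trametinib and 0 lower, beside 23.7% and 27.4% of all tested genes. The higher one was the late endosomal GTPase RAB7A. Its vehicle levels were 10101 and 9876 and its trametinib levels 22443 and 24718. Panobinostat libraries held 11526 and 11848, and combination libraries 10830 and 10920. The rise with trametinib was 1.24 ± 0.055 and the fall on adding panobinostat -1.11 ± 0.055. In the combination RAB7A did not pass against vehicle (0.12 ± 0.055, adjusted p = 0.0902). ANKRD27, an effector of both GTPases, fell in the combination against vehicle (-0.51 ± 0.17, adjusted p = 0.0291).

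The remaining subunits of AP-3, the complex of AP3B1, were split. Of 5 tested, AP3M1 was higher with trametinib (0.33 ± 0.081) and AP3M2 lower (-0.71 ± 0.22). When panobinostat was added, AP3D1 (-0.60 ± 0.071) and AP3M1 (-0.37) fell. In the AP-1 adaptor 3 of 7 were higher and 2 lower with trametinib, led by AP1S2, which went from 2774 and 2942 to 5579 and 5516 (0.96 ± 0.057). Of 6 subunits of the HOPS tethering complex 4 were higher, among them VPS39 (1.24 ± 0.13) and VPS41 (1.15 ± 0.12). In BLOC-2, HPS3 (0.33 ± 0.11) and HPS5 (0.58 ± 0.19) of 3 tested were higher, and the HPS3 call ended without trametinib replicate 2 (0.19, adjusted p = 0.117). Of 9 endosomal SNAREs 3 were higher, STX3 (0.84 ± 0.10), STX7 (0.75 ± 0.096) and STX12 (0.79 ± 0.23). Beside these small counts, 23.7% of all tested genes were called higher and 27.4% lower with trametinib. When panobinostat was added, 15.2% were called lower. Whether any of these lists departs from those shares was not tested.

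Among the other motors and adaptors, 8 of 17 were higher with trametinib and 2 lower, beside 23.7% and 27.4% of all tested genes. The dynactin subunit DCTN1, of the transport towards the cell centre, went from 1410 and 1403 to 2926 and 2726 under trametinib (1.01 ± 0.073). The kinesin KIF13A, which carries cargo from endosomes to melanosomes, rose with trametinib (0.63 ± 0.078) and was 0.88 ± 0.078 above vehicle in the combination. The kinesin KIF5B fell under all treatments, by trametinib (-0.63 ± 0.067), by panobinostat (-0.82 ± 0.067) and by both (-0.83 ± 0.067).

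**Figure D4:**
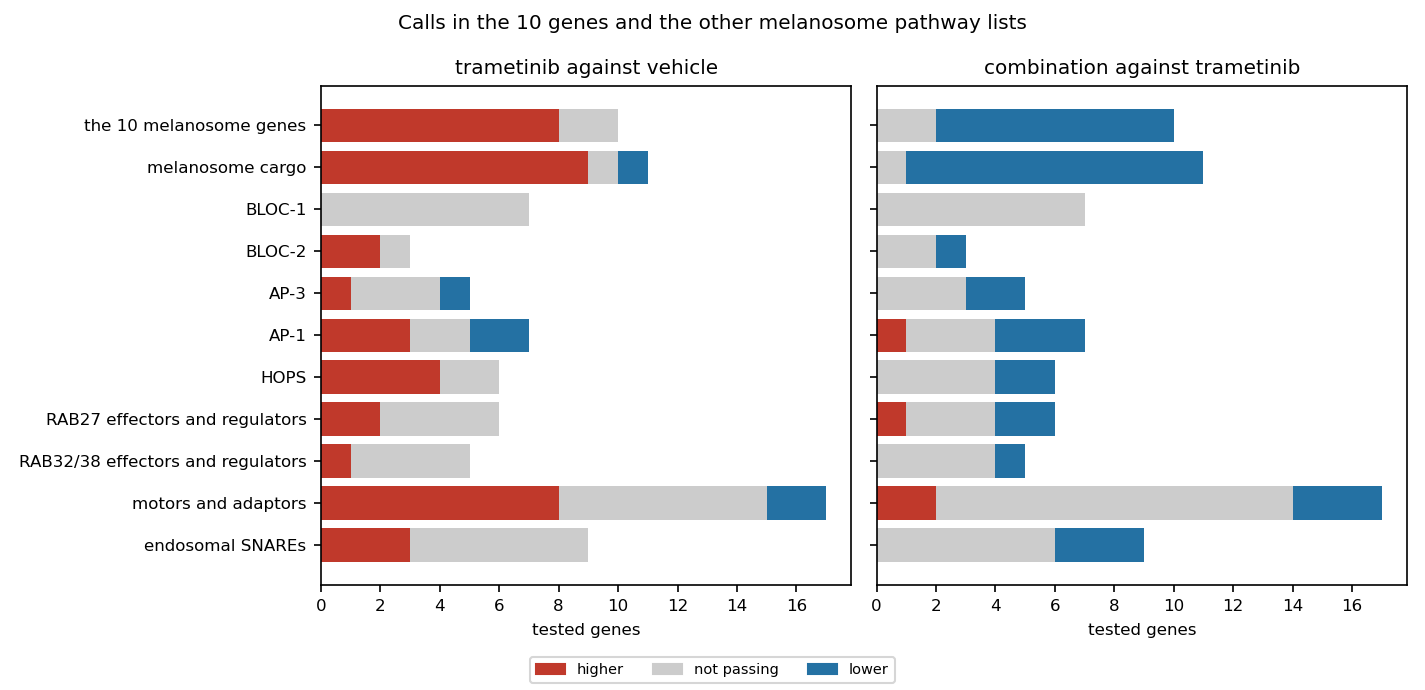
Number of tested genes (horizontal axis) called higher, not passing or called lower by limma in the 10 genes and in each of the 10 other pathway lists (vertical axis), for trametinib against vehicle (left) and the combination against trametinib (right). The 10 genes (8 higher, then 8 lower) and the melanosome cargo (9 higher, then 10 lower) have the largest shares called. AP-1 has 3 higher and 2 lower of 7 with trametinib. BLOC-1 has no calls here, and some of its genes lay far apart between the trametinib libraries. Over all tested genes 23.7% were higher and 27.4% lower (left), and 17.6% and 15.2% (right).

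The lineage factors MITF and SOX10 were read beside these genes. MITF had vehicle levels of 4158 and 4070 and trametinib levels of 8362 and 8592. Its panobinostat levels were 5343 and 5099, and its combination levels 4184 and 4336. Its levels in the combination lay near those in vehicle (0.050 ± 0.054, adjusted p = 0.472), as did those of MLPH and MYO5A. SOX10, a factor upstream of MITF, was at 10554 and 10220 in vehicle and at 17632 and 19961 with trametinib. With panobinostat it was at 15788 and 16174, and in the combination at 20061 and 19340, so that, like GPNMB, it stayed above vehicle under both drugs (0.92 ± 0.062, adjusted p = 2.69e-06). With panobinostat alone MITF (0.34 ± 0.054, adjusted p = 0.00144) and SOX10 (0.62 ± 0.062, adjusted p = 0.00012) rose. Of the 10 genes, GPNMB (0.73) and LYST (0.47) rose there too, RAB27A, MYO5A, RAB32 and HPS4 fell, and 4 did not pass. The falls of RAB27A and RAB32 were the less secure ones described above. The part of either factor in the levels of the 10 genes was not tested.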

How the data were processed

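RNA of 8 libraries was measured with total RNA-seq, prepared with a NuGEN Ovation Human FFPE kit per the labels' protocols. The submitters' processing notes name TopHat2 2.0.13, Cufflinks 2.2.1 and DESeq2. They list the build hs37d5 for the 4 libraries of vehicle and trametinib, and no source used here names one for the other 4. The authors deposited signal values, gene counts divided by a size factor. Within each library 100% of values were whole multiples of 1 step (tolerance 1e-06). With 1 step taken as 1 read, this gave 6897784 to 16861001 reads per library. 0 columns were left unmapped.

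From these, log2(value + 1) was tested with limma 3.58.1 in R 4.3.3, with an intensity trend, in 1 fit of 8 libraries and 4 group means (4 residual degrees of freedom and 5.32 from the prior). It covered 13320 genes with a mean of at least 10, with Benjamini-Hochberg adjustment across all of them and a threshold of 0.05. A permutation test of 2 against 2 libraries cannot go below p = 0.333 and was not used. Folds are ratios of the group means of the deposited values. Log2 changes and 95% intervals come from the fit on log2(value + 1), which understates changes of low genes. The fit was tested on simulated data.

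All 10 genes are named. In each other list up to 3 genes with the smallest adjusted p against vehicle are named, and any exception is marked where it stands. Members and lists were chosen with earlier results of these data known. Alternatives were pseudocounts of 0.5 and 5, no filter or a mean of 50, trimmed mean of M values (TMM, unweighted) scaling, only the groups compared, a replicate block, and leaving out each library.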

Additional observations from a re-analysis of the deposited data

Results flagged for a closer look

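For 7 of the 10 genes the effect of panobinostat differed between cells with and without trametinib, by the interaction test of the limma fit. The log2 differences were -1.15 for RAB27A, -1.74 for MLPH, -1.26 for MYO5A, -1.12 for RAB38, -0.69 for GPNMB, -0.67 for HPS1 and -0.94 for LYST. All 7 were negative, beside 9.04% of all tested genes called lower. RAB27A no longer passed without vehicle replicate 1, and HPS1 no longer passed without any 1 of the vehicle, panobinostat or combination libraries. The cause was not tested.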

How the results depend on the processing

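Of 70 values (10 genes in 7 comparisons), 47 passed. Of these, 40 kept their call and direction under all 7 settings that keep every library, and the 7 interactions under the 6 that apply to them. Over the 8 fits that leave out 1 library, 38 kept their call, 9 lost it and 0 reversed. With 1 library left out, the count of lower genes under panobinostat ranged from 2 to 4, that of lower genes in the combination against vehicle from 1 to 2, and that of higher genes in the combination against panobinostat from 2 to 4. The last was 2 without panobinostat replicate 1. Leaving out 1 library also moved the counts of lower genes in the combination against trametinib and in the interaction. The counts of higher genes with trametinib against vehicle and in the combination against vehicle moved as well. TMM scaling made LYST (-0.19, adjusted p = 0.0282) the second lower gene of the combination against panobinostat, 2 in place of 1. It moved the median of all tested genes in the combination against vehicle from 0.031 to -0.073. Values that changed sign had not passed. Under TMM these were, against vehicle in the combination, MLPH (-0.097), MYO5A (-0.052) and AP3B1 (-0.0050), against trametinib GPNMB (-0.031), and against panobinostat MLPH (-0.049). With 1 library left out, AP3B1 ranged from -0.00010 to 0.24 with trametinib, from -0.017 to 0.22 in the combination against vehicle and from -0.076 to 0.042 against trametinib. MLPH ranged from -0.043 to 0.029 with panobinostat, from -0.027 to 0.045 in the combination against vehicle and from -0.016 to 0.048 against panobinostat. GPNMB in the combination against trametinib ranged from -0.024 to 0.10, and the RAB32 interaction from -0.24 to 0.032. Counts over all genes moved by more than 1.5 times, for panobinostat against vehicle from 1994 higher and 2075 lower to between 1029 and 3567 higher and 918 and 3768 lower. For the combination against trametinib they went from 2343 higher and 2020 lower to between 1148 and 4238 and between 1108 and 3145. For the combination against panobinostat they went from 1451 and 1740 to between 714 and 2758 and between 929 and 2989. For trametinib against panobinostat they went from 2487 and 3111 to 1635 higher and between 1913 and 4690 lower, and for the interaction from 1361 and 1204 to between 617 and 3690 and between 690 and 2525. The causes were not tested. Same-numbered libraries did not deviate together (correlations across genes from -0.023 to 0.022), so the numbers do not pair them, and with a replicate block the counts of the 10 genes were the same, for example 8 higher with trametinib and 7 lower in the interaction. The planned edgeR and DESeq2 alternatives were not run, since the values are normalised and not all libraries were accepted as whole reads. The exceptions have a step near 1: trametinib replicates 1 (1.003) and 2 (1.005) and panobinostat replicate 2 (1.008). Read numbers given here assume that 1 step is 1 read. Where a fit leaves 1 library in a group, it is assumed to vary like the others. The 2 libraries per group and the 153 reads behind the lowest value limit what small changes can be seen.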
